A study of Mus musculus with 13 samples.

Results

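A mouse array labelled as neural stem cells in vivo was set against 3 arrays of neural stem cells in culture (NSC), which are 4 of the 13 Illumina bead arrays of the study. All 4 carry the strain label C3H. Each cultured array came from its own numbered clone, and the labels give no treatment, passage or medium for any of them. The in vivo group is a single array, and its labels name no age, brain region, cell sort, number of animals or transplantation. With 1 array in vivo, no spread could be measured there. The tests take the spread from the 3 groups of the study with 3 arrays each and assume that the in vivo array varies like them.

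Neural stem cells of the adult brain lie in niches beside ependymal cells, blood vessels and microglia, and most of them divide rarely. In culture with growth factors they proliferate, and are usually recognised by the transcription factor Sox2, the filament nestin (Nes), the fatty acid binding protein Fabp7, the Notch target Hes5 and the EGF receptor (Egfr). Tissue taken from brain also holds neurons, oligodendrocytes, astrocytes, vessel cells, immune cells and blood unless cells are sorted. In RNA from bulk samples, fewer cells of a type and less RNA per cell cannot be told apart.

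The in vivo array was dim. Its median raw intensity over 25697 probes was 79.3, against 106 to 107.7 on the NSC arrays, and its mean was 148, against 383 to 399. It detected 6872 probes (26.7%) at a detection p under 0.01, and the NSC arrays 42.7% to 44.0%. After normalization the lowest level among detected probes was 6.44 on the log2 scale in vivo and 4.84 to 4.92 on the NSC arrays. A gene between these limits can be seen in culture and not in vivo at the same level. Of 7245 genes detected on all 3 NSC arrays, 2667 were not detected in vivo, and 1371 of those had a mean NSC level below the in vivo limit. The share detected in vivo rose with the level in culture, from 28.9% of genes with a mean NSC level under 6 to 96.0% of those over 12. On the fibroblast array (MEF), of ordinary brightness, the same shares were 85.0% and 100%.

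**Figure D1:**
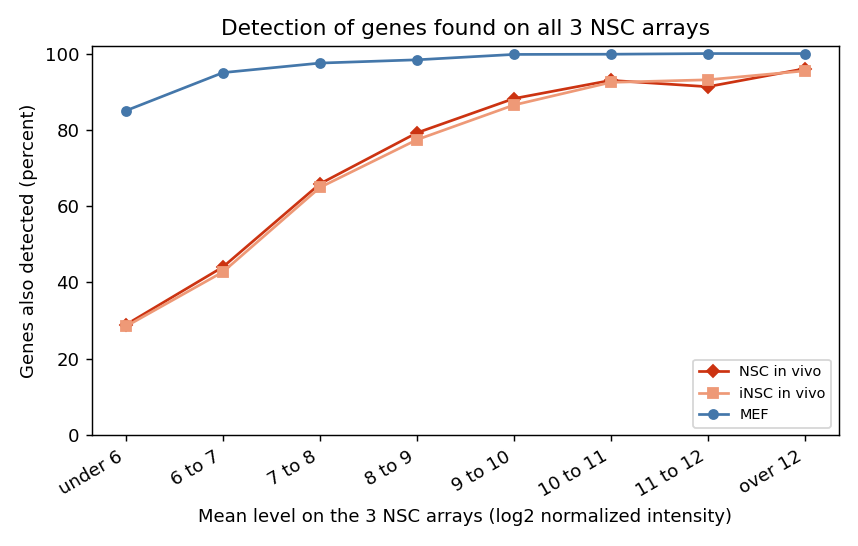
Share of genes detected on all 3 NSC arrays that were also detected on the NSC in vivo, iNSC in vivo and MEF arrays (vertical axis, percent), by mean NSC level (horizontal axis, log2 normalized intensity). Both in vivo arrays rise from under 30% to over 95%, while the MEF array starts at 85.0%.

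Across genes the in vivo array correlated with the 3 NSC arrays at r = 0.612 to 0.630, and the NSC arrays with one another at 0.971 to 0.986. Over the 4578 genes detected on all 4 arrays these values were 0.532 to 0.562 and 0.955 to 0.977. A narrower range of levels can lower r by itself, so the values cannot compare the distance between these sets of genes. Genes are not independent replicates, and these values carry no test.

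Of 10923 genes tested, 3700 (33.9%) were higher and 3725 (34.1%) lower in vivo at an adjusted p under 0.05 (limma), with a median log2 difference of -0.04, and 7662 had an unadjusted p under 0.05. All of these calls lay outside the range of the 3 NSC arrays. Detection divided them. Of the rises, 1937 were measured on all 4 arrays, and 724 were of genes that no NSC array detected, for which only a lower bound of the fold can be given. The in vivo limit lies above the NSC limits, so any gene of this class had to read higher in vivo. All 724 were called, and their count describes detection and tests nothing. Another 229 were detected in vivo and on some NSC arrays, and their differences rest partly on background readings in culture. Igf2, Oasl2, Psmb9, Slco1c1, Bst2 and Stmn2, given below with standard errors, are among them, each detected on 1 NSC array. A further 810 genes were called higher although the in vivo array did not detect them, and these are not read as rises. Of the falls, 1408 were measured on all 4 arrays. Another 649 were of genes not detected in vivo whose NSC mean stood at least 2-fold above the in vivo limit. The remaining 1668 falls were not resolved, 1458 of them because the NSC level was too near that limit.

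**Figure D2:**
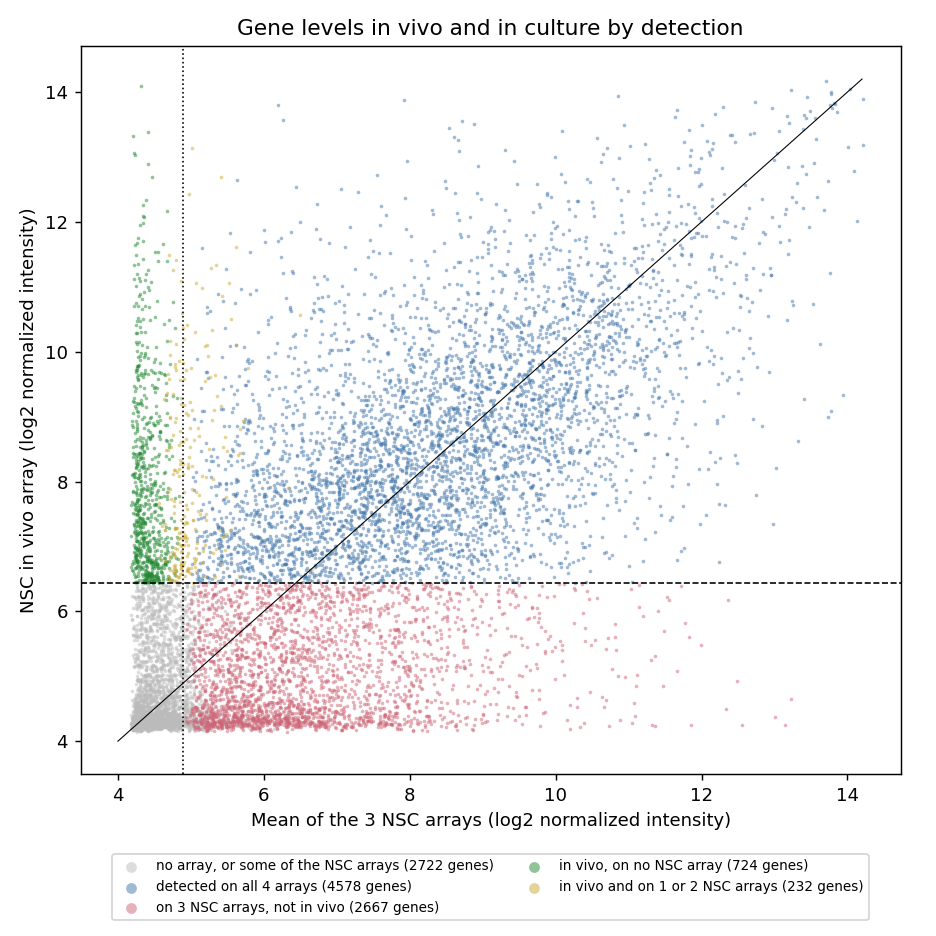
Level of each of 10923 genes on the NSC in vivo array (vertical axis) against the mean of the 3 NSC arrays (horizontal axis), both in log2 normalized intensity, coloured by detection, with the number of genes of each class in the legend. The dashed line marks the lowest detected level in vivo (6.44), the dotted line the mean of the same limit on the NSC arrays, and the solid line equal levels. The 2667 genes seen in culture only lie below the dashed line, and the 724 genes seen in vivo only form the column at the left.

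The balance of rises and falls depends on the scaling. Quantile normalization gives all arrays one distribution. Scaling each array by its median moved the median difference of all genes to -0.87 and gave 1624 rises and 5933 falls. Scaling by the probes detected on all 13 arrays moved it to 1.08 and gave 6509 rises and 2218 falls. Every difference here is therefore relative to the quantile distribution. Under all 3 scalings 1802 falls and 791 rises were resolved by detection. Counts of list members called stand beside 33.9% of all genes called higher and 34.1% called lower. Medians and counts of the gene lists below use fitted values, which for undetected genes are background readings. The count of members called higher is therefore followed by the number detected in vivo where they differ. Where a median with undetected members held at their detection bound is given, a member whose bound leaves no direction counts as 0, and over all genes that median was 0.0.

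Most of the markers that define the cells of its label were not detected on the in vivo array, which also missed 2667 of all 7245 genes that the NSC arrays detected. Of 15 tested genes of the neural stem and radial glia list (25 listed, 23 with a probe), 13 were lower in vivo (34.1% of all genes were), none was higher and 2 did not pass, with a median of -3.14, or -1.84 with undetected members at their bound. All 15 were detected on every NSC array, and 5 in vivo. Scaling on the probes detected on all arrays gave 11 lower and 3 higher (median -2.12). The filter also admits genes that only cultured arrays detect, where the members of this list are high. Without it, 12 of 23 genes were lower and 2 higher, neither detected in vivo, and the median was -1.57. Sox2 stood at 8.20, 8.34 and 8.15 on the NSC arrays and at 4.64, not detected, in vivo. That is at least 3.46-fold lower (limma, adjusted p = 6.61e-07), and its second probe, also not detected in vivo, gave a bound of 2.60-fold. Egfr, the receptor of epidermal growth factor, read 9.88, 9.60 and 10.18 against 6.22, at least 10.9-fold lower. Fabp7 was at least 5.79-fold lower, Hes5 at least 7.87-fold and Nes at least 3.59-fold, all without detection in vivo. The single in vivo value was below all 3 NSC values for each of these genes.

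Among the stem cell genes measured on both sides, Vim, a filament gene, changed by -3.72 ± 0.51 (SE) on the log2 scale, Sox9, a glial transcription factor, by -2.37 ± 0.25 and Sox21 by -3.14 ± 0.23. Slc1a3, the glutamate transporter of radial glia and astrocytes, read 13.80 in vivo and 13.69 to 13.80 in culture, inside the NSC range. Notch1 read 10.81 in vivo and 10.14 to 10.38 in culture (0.52 ± 0.25, limma, adjusted p = 0.0935). Both are also expressed by astrocytes or vessel cells. Of 7 genes of the list with several probes on the NSC arrays, 4 were over 2-fold lower on each of those probes with undetected readings at the in vivo limit: Bcan, Hes5, Sox2 and Tnc. The other probes of Egfr and Nes were too near that limit to show such a fall.

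**Figure D3:**
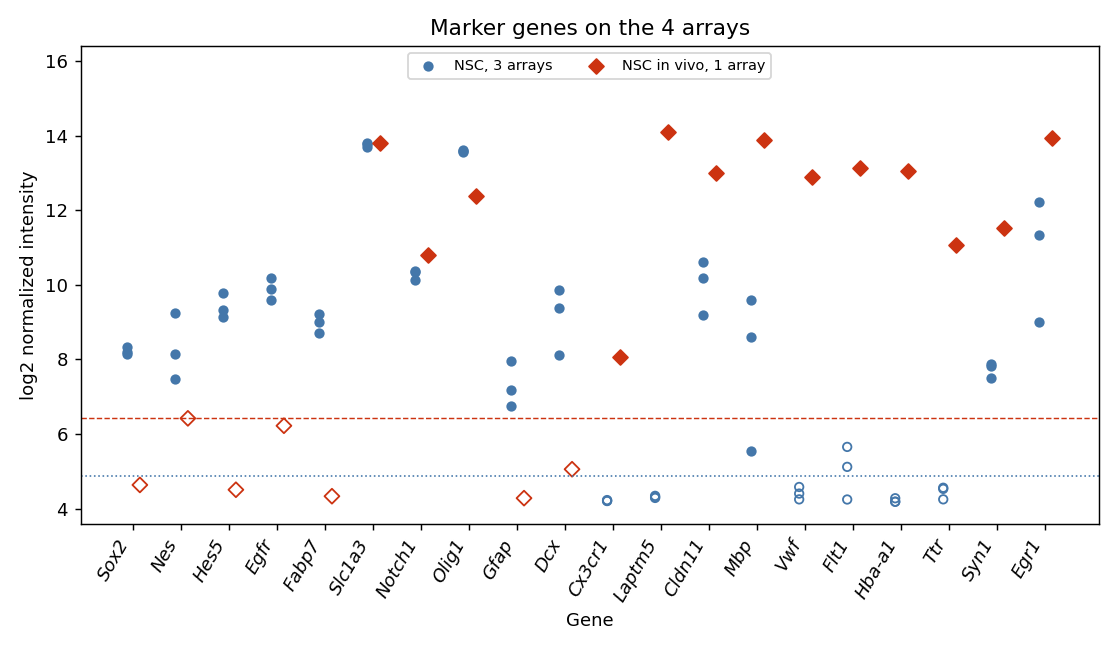
Levels of 20 marker genes (log2 normalized intensity, vertical axis) on the 3 NSC arrays (circles, filled where all 3 detected the gene) and the NSC in vivo array (diamonds, filled where detected). The dashed and dotted lines are the lowest detected levels in vivo and in culture. Stem cell markers such as Sox2 and Egfr are open diamonds below the dashed line, and microglial, vascular and blood markers are filled diamonds at 8.08 to 14.09.

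Microglia, the resident macrophages of the brain, gave the list with the highest median. Of 30 listed genes 26 had a probe and 24 passed the filter, and all 24 were higher in vivo (33.9% of all genes were; median 5.20), 23 of them detected there. No NSC array detected 22 of them. The filter let 11 of the list's genes in only through in vivo arrays. A gene detected on the NSC in vivo array and on no NSC array had to read higher in vivo, so the count describes the array and tests nothing. Summed over the list, normalized intensity was 40304 in vivo and 549 to 594 on the NSC arrays. Laptm5, a lysosomal membrane gene of blood-derived cells, read 14.09 in vivo and 4.29 to 4.35 on the NSC arrays, at least 588-fold higher. It was not confined to the in vivo arrays, and read 12.34 on the embryonic stem cell array (ESC) and 6.31 on MEF. P2ry12 (at least 38.5-fold) and Tmem119 (at least 56.0-fold), genes that mark resident microglia, and Cx3cr1 (at least 9.10-fold), a chemokine receptor gene, rose with the complement genes C1qa, C1qb and C1qc. Ptprc, the pan-leukocyte gene, was not detected on any of the 4 arrays.

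Genes of activated and infiltrating myeloid cells were higher in 32 of 37 tested members (28 detected in vivo), lower in 1 and not called in 4 (median 3.96), and 12 had passed through in vivo arrays alone. Ccl4, a chemokine, read 13.32 against 4.19 to 4.23 and was at least 346-fold higher, and Lyz1, a lysozyme, was at least 222-fold higher. Another Ccl4 probe read only 7.66 in vivo against 4.22 to 4.30 in culture. Another Lyz1 probe read 5.21 and was not detected in vivo. MHC class II genes were among the members called higher, with H2-Aa at least 117-fold, Cd74 at least 88.0-fold and H2-Ab1 at least 66.4-fold higher. Cd163 (at least 27.8-fold) and Mrc1 (at least 4.18-fold) mark perivascular macrophages. Itgax, Ccl2, Cxcl10 and S100a8 were detected on none of the 4 arrays. Cd63, a lysosomal gene that most cells express, was the 1 member that fell, by 4.59 ± 0.22 on the log2 scale. Of 6 tested lymphocyte genes all were called higher and 4 were detected in vivo, such as the T cell genes Cd3e (at least 5.53-fold) and Cd8b1, seen on no NSC array. Only 6 of the 15 lymphocyte genes with a probe had passed the filter, 3 of them through in vivo arrays alone. Any of these that the NSC in vivo array detected had to be higher there.

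Endothelial genes were higher in 23 of 27 tested members and lower in none (median 4.86), with 26 detected in vivo and 7 let in through in vivo arrays alone. Vwf, the clotting factor stored in vessel cells, read 12.89 against 4.25 to 4.58, at least 256-fold higher. Flt1, a VEGF receptor gene, read 13.13 against 5.66, 4.25 and 5.12. Esam, a junction gene, was at least 136-fold and Pecam1 at least 50.1-fold higher. Slc2a1, the glucose transporter of the blood-brain barrier, was detected on all 4 arrays and rose by 4.63 ± 0.35 on the log2 scale. Mfsd2a, a lipid transporter gene of the same barrier, was already at 10.41 to 10.57 in culture and did not pass (0.30 ± 0.27). The list's summed intensity was 73152 in vivo and 4514 to 6689 in culture.

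Pericyte and smooth muscle genes were higher in 13 of 16 (11 detected in vivo), with none lower (median 2.47). The filter let in 3 of the 16 through the NSC in vivo array alone, which had to be higher there. Members called higher included Vtn (at least 99.6-fold) and the intermediate filament gene Des (at least 11.9-fold). Blood was also seen: 5 of 6 tested erythroid genes were higher, of 7 with a probe, and 5 of the 6 had passed through in vivo arrays alone. Hba-a1, an alpha globin gene, read 13.06 against 4.19 to 4.28 and was at least 287-fold higher. Hbb-bt was at least 155-fold and Alas2, which starts haem synthesis in red cells, at least 28.3-fold higher.

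Several members of these lists were among the largest rises of all genes. After Laptm5 the largest bounded rises were Slco2b1 (at least 361-fold), Ccl4, Hba-a1, Slc38a5 (at least 281-fold) and Vwf, and then Lyz1, Icam2, St6galnac2 and Hbb-bt (at least 155-fold). Among genes measured on all 4 arrays, Igfbp7, a secreted protein of brain vessels, rose by 7.61 ± 0.69 and Ier3, an immediate early gene, by 7.31 ± 0.46. Slc40a1, the iron exporter, rose by 7.01 ± 0.30, and Notch4, the endothelial Notch receptor, by 6.10 ± 0.27. Their in vivo levels were 11.28 to 13.88 for the 10 largest measured rises, all far above the limit of 6.44.

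Genes of mature neurons went both ways. Of 33 tested members 19 were higher, 7 lower and 7 not called (median 1.74). Under median scaling 16 were higher and 9 lower (median 0.12). Cplx1, which acts in transmitter release, rose by 4.84 ± 0.63, from 7.89 to 9.43 in culture to 13.56. Stx1a (5.67 ± 0.19) and Syn1 (3.79 ± 0.28), both of the presynapse, and Eno2 (5.18 ± 0.58), the neuronal enolase, also rose. Nrgn (at least 12.8-fold), of forebrain postsynapses, was seen only in vivo, as was Camk2a. Uchl1, an abundant neuronal hydrolase, was lower by at least 4.98-fold, Gria2 by at least 5.84-fold and Syn2 by at least 2.36-fold, none detected in vivo. Snap25 was not among the genes tested.

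Myelin genes were higher in 14 of 23, 11 of them detected in vivo, and lower in 2 (median 1.66). Under median scaling 8 were higher and 4 lower (median 0.48). Mbp, myelin basic protein, read 9.58, 8.61 and 5.56 on the NSC arrays and 13.88 in vivo, a rise of 5.97 ± 1.14 (limma, adjusted p = 0.00112). The clones were wide apart here, and all were below the in vivo value. Another Mbp probe, detected in vivo and on 2 NSC arrays, rose by only 1.46. Mobp was at least 73.1-fold, Mal at least 36.4-fold and Opalin at least 20.7-fold higher, and no NSC array detected them. Another Mobp probe read 8.96 in vivo against 4.29 to 4.39 in culture, and a further probe, at 5.58, was not detected in vivo. Ugt8a, which makes myelin glycolipid, was lower by at least 1.56-fold on its only probe, under the 2-fold bound used for resolved falls. Ependymal and choroid plexus genes were higher in 9 of 17 (8 detected in vivo) and lower in 2 (median 1.22), with Ttr, the thyroxine carrier of the choroid plexus, at least 72.6-fold higher and the cilia genes Tekt1 (2.44 ± 0.14) and Dynlrb2 (2.99 ± 0.20) measured on all 4 arrays. Otx2, of the same list, went the other way: it read 7.95 to 8.27 in culture and 4.82, not detected, in vivo, at least 3.28-fold lower. Of 29 fibroblast and meninges genes 17 were called higher, 12 of them detected in vivo, 4 lower and 8 not called (median 0.89, or 0.0 at the bounds). Igf2, a growth factor of meninges and choroid plexus, rose by 6.50 ± 0.26 (detected on 1 NSC array), and Col1a1 was not detected on any of the 4 arrays.

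**Figure D4:**
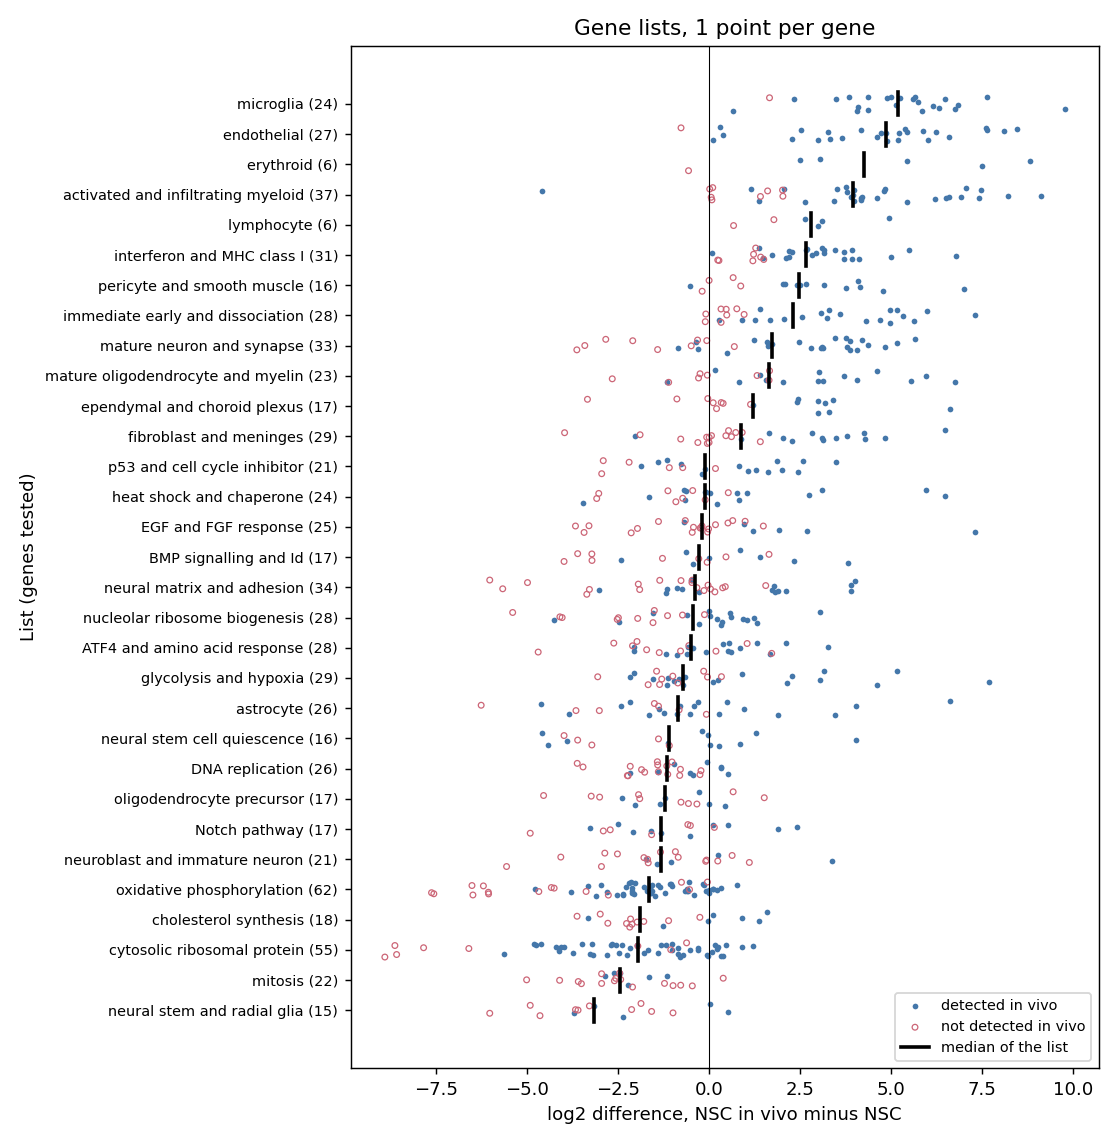
Log2 difference, NSC in vivo minus NSC (horizontal axis), of each tested gene of 31 lists (1 row per list, number of genes tested in parentheses), filled where the in vivo array detected the gene and open where it did not, with the list median as a bar. The microglia and endothelial lists lie highest, with medians of 5.20 and 4.86, and the neural stem list lowest, at -3.14, with mostly open points.

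Interferon and MHC class I genes, which display antigen and limit viruses, were higher in 28 of 31 tested members, 23 of them detected in vivo, and lower in none (median 2.66). Under median scaling 19 were higher and 1 lower (median 0.90). No member of the list had passed the filter through in vivo arrays alone. Oasl2 read 11.49 in vivo and 5.11, 4.39 and 4.60 in culture (6.79 ± 0.34, limma, adjusted p = 1.23e-07). Ifitm3, a membrane protein that blocks virus entry, rose by 5.50 ± 0.50, Psmb9, an immunoproteasome subunit, by 5.02 ± 0.21 and B2m, the MHC class I light chain, by 1.73 ± 0.24. The heavy chain genes H2-D1 and H2-K1 were called higher but detected on none of the 4 arrays. Microglia and endothelium express many of these genes, and their lists moved on the same array. The part of those cells in this rise was not tested.

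The promoters of 4 of these genes are shown because they hold the core of the interferon-stimulated response element (ISRE), GAAANNGAAA, and their genes rose together. Each run holds the 250 bases before the start site on the gene's strand (RefSeq, GRCm38.p6), with matches on either strand in capitals. Igtp lies at chr11:58199306-58199555 on the plus strand, Ifit3 at chr19:34583279-34583528 on the plus strand, Bst2 at chr8:71537473-71537722 on the minus strand and Gbp2 at chr3:142620413-142620662 on the plus strand.
Igtp: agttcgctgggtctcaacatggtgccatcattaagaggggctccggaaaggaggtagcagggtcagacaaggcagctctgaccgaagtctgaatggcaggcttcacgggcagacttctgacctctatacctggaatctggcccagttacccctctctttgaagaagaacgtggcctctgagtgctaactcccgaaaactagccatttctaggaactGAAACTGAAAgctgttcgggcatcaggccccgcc
Ifit3: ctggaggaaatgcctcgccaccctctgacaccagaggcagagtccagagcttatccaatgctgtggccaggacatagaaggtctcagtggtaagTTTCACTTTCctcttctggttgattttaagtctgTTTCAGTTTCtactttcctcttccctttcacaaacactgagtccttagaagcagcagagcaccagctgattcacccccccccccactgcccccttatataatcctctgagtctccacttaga
Bst2: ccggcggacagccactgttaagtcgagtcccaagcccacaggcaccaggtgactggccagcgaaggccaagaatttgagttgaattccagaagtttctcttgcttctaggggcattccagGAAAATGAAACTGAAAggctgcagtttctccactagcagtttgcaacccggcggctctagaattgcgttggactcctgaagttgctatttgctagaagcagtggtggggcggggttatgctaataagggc
Gbp2: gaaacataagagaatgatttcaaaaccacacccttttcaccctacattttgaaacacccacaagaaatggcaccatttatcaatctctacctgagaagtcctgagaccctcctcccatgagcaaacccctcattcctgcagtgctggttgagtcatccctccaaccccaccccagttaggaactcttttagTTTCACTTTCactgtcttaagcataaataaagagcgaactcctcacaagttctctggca
These genes rose by 4.12 ± 0.31 (Igtp), 3.94 ± 0.40 (Ifit3), 3.72 ± 0.26 (Bst2) and 3.46 ± 0.58 (Gbp2). They are the largest rises, among members detected in vivo, of the genes that hold the motif. In Ifit3 and Gbp2 it reads on the other strand, and in Bst2 a pair of matches overlap. Of 27 list members with a promoter in the table, 12 (44.4%) held the motif, and of 27025 genes 821 (3.04%). A match describes the letters only.

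Immediate early and dissociation genes, which respond to handling and to neuronal activity within minutes, were higher in 22 of 28, 17 of them detected in vivo, and lower in none (median 2.31). Under median scaling 12 were higher and 2 lower (median 0.63). Egr1 rose by 3.09 ± 1.07 on the log2 scale, with clones wide apart below its in vivo level of 13.94. Atf3 (at least 32.7-fold), Arc (at least 27.6-fold), a gene of active synapses, and Klf2 (at least 26.4-fold) were detected on no NSC array. Dusp1, a phosphatase of the MAP kinase pathway, rose by 4.97 ± 0.50 and Zfp36 by 5.99 ± 0.70. Fos did not pass (1.40 ± 1.06) and read 10.73, 7.45 and 9.72 in culture and 10.70 in vivo. The cyclic AMP response element TGACGTCA was in 2 of 25 promoters of this list (8.0%) and in 1.62% of all, counted on both strands. Among 24 heat shock genes 7 were higher (6 detected in vivo) and 11 lower, and the stress-inducible Hspa1a rose by at least 60.7-fold while the constitutive Hspa8 did not pass. The list's median of -0.10 became 0.40 with scaling on the probes detected on all arrays.

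Astrocyte genes were lower in 13 of 26, higher in 5 and not called in 8 (median -0.85). Scaling on the probes detected on all arrays gave 8 higher and 10 lower (median -0.25). Mt3, a metallothionein of astrocytes and neurons, was at least 25.4-fold lower, and Aqp4, the water channel, fell by 3.83 ± 0.21. Gfap read 7.95, 7.18 and 6.75 in culture and 4.28, not detected, in vivo. Its NSC mean stood less than 2-fold above the in vivo limit, so this fall was not resolved. Slco1c1, a thyroxine transporter gene of astrocytes and vessels, rose by 6.63 ± 0.30 and Ntsr2 by 4.05 ± 0.34. Oligodendrocyte precursor genes were lower in 8 of 17 and called higher in 2, neither detected in vivo (median -1.20). That scaling gave 5 higher and 6 lower (median -0.18). Sox8 was at least 9.81-fold lower, Olig1 fell by 1.20 ± 0.15 to 12.38, and Pdgfra fell by 2.03 ± 0.54.

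Neuroblast genes were lower in 13 of 21 and called higher in 3, of which 1 was detected in vivo (median -1.33, or 0.14 when scaled on the probes detected on all arrays). Dcx, which marks migrating neuroblasts, read 9.39, 9.87 and 8.12 in culture and 5.06 in vivo, at least 6.43-fold lower, and its second probe was at least 5.33-fold lower. Dpysl3 was at least 10.2-fold lower, and Stmn2, a growth cone gene, was seen at 8.18 in vivo and rose by 3.39 ± 0.15. Among Notch genes 11 of 17 were lower and 2 higher (median -1.31). Scaling on the probes detected on all arrays gave 8 lower and 6 higher (median -0.50). Hes6 (-3.25 ± 0.21) and the targets Nrarp (-2.49 ± 0.23) and Hey1 (-1.59 ± 0.20) fell. The ligands Dll1 (at least 1.58-fold) and Dll3 (at least 1.55-fold) were also lower, both under the 2-fold bound. Mfng, which modifies Notch, and the ligand Jag1 rose.

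The list of quiescent neural stem cell genes, those that resting stem cells keep high, was lower in 9 of 16 and higher in 2 (median -1.10). But scaling on the probes detected on all arrays gave 7 lower and 5 higher (median -0.11). Without the filter on detection 9 of 22 were lower and 3 higher, 2 of them detected in vivo (median -0.07). Ntrk2 fell by 4.59 ± 0.18, Lrig1 by 4.42 ± 0.21 and Nfix by 3.90 ± 0.20, and Id4 was at least 9.42-fold and Id2 at least 7.54-fold lower. Another Ntrk2 probe detected on all 4 arrays fell by only 1.18. Cst3 and Clu, also made by microglia or astrocytes, read 13.59 and 11.45 in vivo, inside the NSC range. In the BMP list, Id1 rose by 3.81 ± 0.43 and Acvr1 by 2.35 ± 0.19, while the receptor gene Bmpr1a was at least 8.07-fold lower. Of the 17 members 6 were higher (4 detected in vivo) and 8 lower (median -0.28, or 0.72 with scaling on probes detected on all arrays). The EGF and FGF response list had 7 members called higher (4 detected in vivo) and 8 lower of 25 (median -0.19, or 1.51 under that scaling), with Dusp6 up by 2.69 ± 0.77 and Emp1 lower by at least 10.4-fold.

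Cell cycle genes differed widely among the clones. Of 22 mitosis genes 6 were lower in vivo, 1 was called higher without detection, and 15 did not pass (median -2.44). The share lower, 27.3%, was under the 34.1% of all genes. Without background correction 1 member was lower, and scaling on common probes gave 2 higher and 1 lower. Median scaling went the other way, with 1 higher and 13 lower (median -3.22). The summed intensity of the list was 1612 in vivo, but 12852, 2488 and 25544 on the NSC arrays, so 1 clone lay near the in vivo value and another far from it. Prc1, of the spindle midzone, read 11.09, 8.45 and 11.90 in culture and 5.47 in vivo, without detection. Top2a, at 7.16, 5.76 and 8.34 against 4.49, did not pass (limma, adjusted p = 0.0518). DNA replication genes were lower in 9 of 26 and higher in none (median -1.14), a share of 34.6% near that of all genes. Without background correction 4 were lower, and scaling on common probes gave 4 higher and 3 lower (median -0.28). Under median scaling 16 were lower and none higher (median -2.24). Uhrf1 (at least 6.66-fold) and Tyms (at least 2.62-fold) were among the members called lower. Mcm2, Mcm4 and Mcm6, subunits of the replicative helicase, did not pass. Mki67 was not among the genes tested.

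Cytosolic ribosomal protein genes included the largest bounded falls and others near 0. Of 55 tested, 42 were lower, 4 higher and 9 not called (median -1.95). Rps7 read 13.06, 13.12 and 13.26 in culture and 4.25, not detected, in vivo, at least 104-fold lower. Rpl27 was at least 111-fold, Rpl24 at least 94.3-fold and Rpl7a at least 59.3-fold lower, each on 1 probe. Rpl3, Rps14 and Rps20, subunits of the same particle, differed by 0.22 ± 0.12, 0.24 ± 0.14 and -0.02 ± 0.11. Over the 54 members detected on all 3 NSC arrays 7 were not detected in vivo. The 47 detected members differed from NSC by -5.63 to 1.20 with an SD of 1.76, and with the 7 at their bound the SD was 2.14. On the MEF array the same 54 genes ran from -2.72 to 0.88 around NSC with an SD of 0.709, and all were detected. On the iNSC in vivo array, of induced neural stem cells after transplantation into adult brain, the 48 detected members had an SD of 1.73.

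Oxidative phosphorylation genes had the same shape. Of 62 tested, 50 were lower, 2 higher and 10 not called (median -1.65), and 13 of the 60 seen on all NSC arrays were not detected in vivo. Ndufc2, of complex I, was at least 42.8-fold lower, Uqcrh, of complex III, at least 65.8-fold and Cox7c, of complex IV, at least 60.9-fold. Atp5b, the catalytic subunit of ATP synthase, did not pass (0.01 ± 0.16), and Cox4i1 rose by 0.78 ± 0.12. The SD over the detected members was 1.18 in vivo (47 genes), 1.34 on the iNSC in vivo array (48) and 0.597 on MEF (60).

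**Figure D5:**
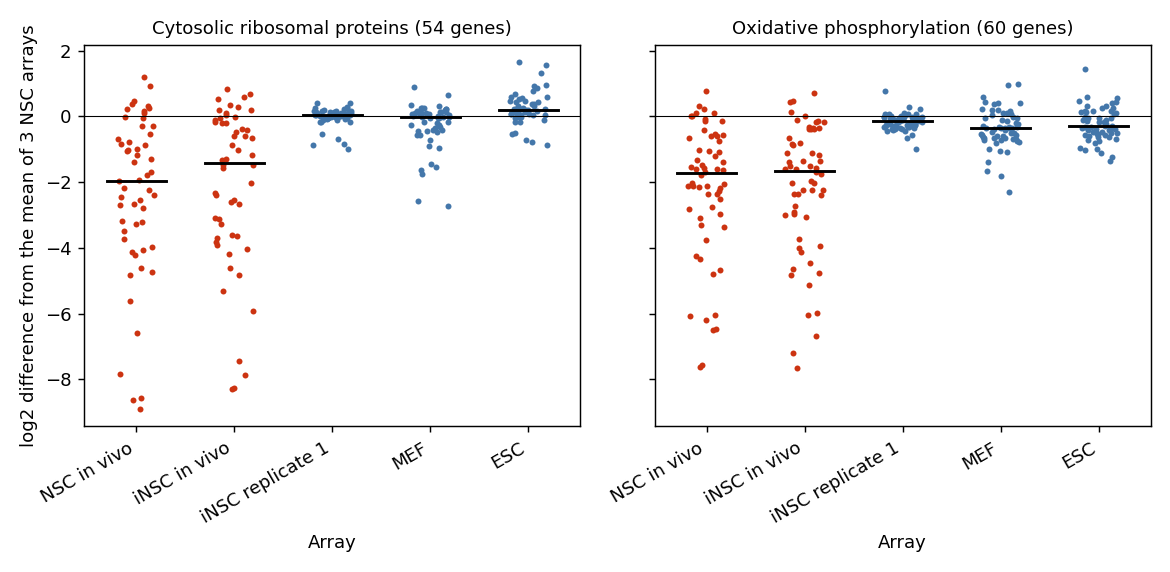
Log2 difference of each cytosolic ribosomal protein gene (left) and oxidative phosphorylation gene (right) from the mean of the 3 NSC arrays (vertical axis) on 5 arrays, with the median as a bar. Genes not detected on an array are drawn at their background reading, which makes the lowest points of both in vivo arrays, while the MEF, ESC and iNSC arrays stay within 3 of 0 on the log2 scale.

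Probes of one gene also disagreed in vivo. Actb, beta actin, had 5 probes detected on all NSC arrays, and the 4 of them detected in vivo differed by -2.53, 0.63, 3.85 and 3.91. The other was not detected there and was at least 15.7-fold lower. Of 1808 genes with at least 2 probes detected on all NSC arrays, the differences of their probes were over 2 log2 units apart in 13.6% in vivo, 13.1% on the iNSC in vivo array, 3.82% on MEF and 5.37% on ESC, with undetected probes at their bound. Some probes of a gene were detected and others not in 47.2% of these genes in vivo and in 5.37% on MEF. Even where all probes of a gene were detected, 12.6% of 650 genes were over 2 apart in vivo, against 3.53% of 1729 on MEF. Of 643 resolved falls with several probes, 174 were over 2-fold lower on each with undetected probes at their bound, and 27 had a probe that was higher by over 2-fold. Of 335 resolved rises with several probes detected in vivo, 208 rose by over 2-fold on each. Probe position and RNA quality were not tested.

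Many genes were missed on both in vivo arrays. Of 5656 genes detected on all 11 arrays of cultured cells, 1728 (30.6%) were not detected on the NSC in vivo array and 1768 on the iNSC in vivo array, with 1510 on neither. That is 87.4% of the first and 85.4% of the second. The 7 genes at a mean NSC level of at least 12 that were not detected in vivo were Cox7c, Rpl24, Rpl27, Rpl7a, Rps7, Tmsb10 and Uqcrh. The cause of this loss was not tested.

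Among the remaining groups, cholesterol synthesis held 12 falls and 3 rises among 18 genes (median -1.88), with Sqle down by 3.31 ± 0.17 and Cyp51 lower by at least 3.09-fold, while Hmgcs1 stayed at 13.76 against 13.62 to 14.04. Glycolysis and hypoxia had 12 falls and 7 rises among 29 (median -0.71, or 0.56 scaled on probes detected on all arrays). Ndrg1, a hypoxia-responsive gene that myelinating cells also express, was at least 145-fold higher, Gapdh fell by 1.13 ± 0.29 on a probe whose partner fell by 1.29, and Pgam1 was at least 4.94-fold lower. Among neural matrix genes, the vessel basement membrane genes Col4a1 (3.90 ± 0.40) and Lamb2 (4.02 ± 0.44) rose, while Ncan, Bcan (at least 13.6-fold) and the protease Mmp14 (at least 20.2-fold) were lower. In all 9 of 34 were higher (8 detected in vivo) and 12 lower (median -0.39, or 1.07 under that scaling). These shares of 26.5% and 35.3% stood beside 33.9% and 34.1% of all genes. ATF4 targets (8 higher, 6 of them detected in vivo, and 12 lower of 28), nucleolar genes (7 and 13 of 28) and p53 genes (8 and 8 of 21) went both ways, and their medians of -0.49, -0.44 and -0.09 turned to 0.41, 0.19 and 0.87 under that scaling. Cdkn1a, the p53-induced cell cycle inhibitor, rose by 2.59 ± 0.34.

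The falls measured on all 4 arrays were largest for Rps16 (-5.63 ± 0.16), Tuba1a (-5.49 ± 0.27), the histone genes H2ac24 (-4.96 ± 0.22) and H2ac10 (-4.87 ± 0.30) and Rpl31 (-4.82 ± 0.14). Another Rpl31 probe detected on all 4 arrays fell by 2.62. Tuba1a, an alpha tubulin abundant in immature neurons, read 12.21, 12.21 and 12.32 in culture and 6.75 in vivo. Rpl36al, Cox5a, Rps12, Hmgn2 and Syt11 came next, down to -4.70 ± 0.18 for Syt11. Tmsb10, an actin-binding peptide, was at least 69.4-fold lower, but its other detected probe read 6.93 in vivo and fell by 3.42.

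Of 4 tested sex-linked genes 2 were called higher and 1 lower. Xist, transcribed from the inactive X chromosome, had a probe at 9.12, 9.18 and 8.99 in culture and 4.58, not detected, in vivo (at least 6.30-fold lower), and a second at 7.09 to 7.11 in culture and 7.12 in vivo. Eif2s3y, on the Y chromosome, read 8.54 in vivo and 4.19 to 4.35 in culture, at least 12.5-fold higher. Kdm5d, also on the Y chromosome, was detected on none of the 4 arrays (0.00 ± 0.20), and Uty was called higher without detection. The labels give no sex.

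The step from culture to in vivo was compared with the same step in induced neural stem cells (iNSC, 3 arrays, and 1 array in vivo). The difference between the steps passed for 3037 of 10923 genes (27.8%), 1561 of them with the NSC step above the iNSC step, 1476 below and 4178 at an unadjusted p under 0.05. No array is shared by the steps, and they enter 1 fit. Many of these genes were undetected on an in vivo array, so the lists are given over members that both in vivo arrays detected. Of 21 such endothelial genes 20 had the higher difference in the NSC step and none the lower. Hba-a1 stood 4.07 log2 units apart (limma, adjusted p = 9.62e-07), Vwf 2.40 and Slc38a5 2.39. Microglial genes were divided: 4 of 22 had the higher and 11 the lower difference in the NSC step, P2ry12 by 1.53 and C1qc by -1.40, while Laptm5 differed by 0.06 and did not pass. Of 28 myeloid genes 3 were higher and 18 lower, and of 24 interferon and MHC class I genes 1 and 8. Gfap, Dcx and Nes were not detected on the NSC in vivo array, and the difference between their steps was not resolved.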

How the data were processed

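RNA of 13 mouse samples was measured on Illumina bead arrays, and 1 array of neural stem cells in vivo was compared with 3 of cultured clones. The deposited non-normalized file holds a signal intensity and a detection p-value for each of 25697 probes, and the deposited value table holds log2 values; the submitters' processing notes name BeadStudio 3.2, RMA and lumi, with no order given. Each array's detection column was taken as the one beside its intensity, and checked by rank against it.

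Intensities were background-corrected by normexp from the detection p-values (offset 16), then brought to one distribution by quantiles and log2-transformed (limma 3.58.1, R 4.3.3). A probe with 1 gene symbol was kept if detected (p under 0.01) on at least 1 array, which left 15049 probes. The probe with the highest mean stood for its gene, giving 10923 genes. One fit over 7 groups (6 residual degrees of freedom) gave two-sided tests, with Benjamini-Hochberg adjustment over all genes and a threshold of 0.05. Nothing in the labels says that clones are separate animals, so p-values measure only the spread between these arrays. ± values are standard errors.

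A gene not detected on the in vivo array has only a bound: the NSC mean over the lowest level among detected probes in vivo, and the reverse for rises. Falls were called resolved at a bound of at least 2-fold. The number of arrays limits the precision. Members and gene lists were chosen with earlier results of these data known. Named genes were the largest measured and bounded changes, list members and the largest differences between steps. The fit without the iNSC in vivo array, the motif search, the comparison of probes, the values at detection bounds and the overlap of 3 scalings were added after the values were seen. The fit was tested on simulated data. Promoters came from RefSeq (GRCm38.p6), the first listed start of each gene, with both strands searched (Python 3.11.15, pandas 2.3.3, matplotlib 3.10.9).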

Additional observations from a re-analysis of the deposited data

Results flagged for a closer look

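The step from culture to in vivo differed between NSC and iNSC for 3037 genes by a test of the difference itself (limma, 1 fit), and the 10 named genes with the largest differences follow in log2 units, the NSC step minus the iNSC step. Each in vivo group is 1 array, and where an array did not detect a gene the value rests on a background reading. Aldh1a1, which makes retinoic acid, differed by 5.82: it read 8.20 in vivo against 4.34 to 4.35 on the NSC arrays, and 7.10 in vivo against 8.89 to 9.21 on the iNSC arrays. Brat1 differed by 5.21, with 8.31 against 4.27 to 4.41 for NSC and 8.50 against 9.51 to 10.02 for iNSC. For both genes the in vivo arrays lay closer together than the cultures. Prss35 differed by 7.5, and was detected on the NSC in vivo array (8.76) and not on the other. Igfbp7 differed by 5.17, with in vivo levels of 13.79 and 11.81 and culture levels of 5.84 to 6.58 for NSC and 8.14 to 10.53 for iNSC. Glycam1 differed by 5.64 and was detected on neither in vivo array, while the iNSC arrays read up to 11.39.

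The other differences ran the opposite way. Mmp14 differed by -9.54: it was not detected in vivo for NSC, at 10.31 to 11.19 in culture, and read 8.12 in vivo for iNSC, at 4.22 to 4.27 in culture. Pla2g7 differed by -6.97 and Gja1, the gap junction gene of astrocytes, by -5.99, both high on the NSC arrays and low on the iNSC arrays. Nnat differed by -6.33 and was detected on neither in vivo array, so its value rests on the cultures. Cd70 differed by -5.89, since it was seen at 10.08 on the iNSC in vivo array and on no NSC array.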

How the results depend on the processing

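Scaling moved the counts most. Median scaling gave 1624 rises, 5933 falls, 3354 measured and 1763 bounded falls, and 1794 genes past the test of the difference between the in vivo steps of NSC and iNSC; scaling on the probes detected on all 13 arrays gave 6509, 2218 and, for the steps, 1812. Without background correction 399 falls were bounded, and with only genes detected on all 4 arrays there were 1982 rises and 1425 falls, since fewer genes were tested. Of the 2661 resolved rises 1124 were also called under median scaling, and of the 2057 resolved falls 1906 were under the other scaling. Leaving out 1 NSC array at a time gave 3565 to 3704 rises, 3577 to 3779 falls, 1349 to 1433 measured and 652 to 666 bounded falls. Single genes turned sign as follows. Under median scaling Neu4 became -0.059 and Nrxn3 -1.21. With scaling on common probes Ccne1 became 0.40, Cd70 2.10 and Chaf1a 0.29. With the 4 arrays alone Actb became 0.65. In the deposited values Nrxn3 was -2.48 and Xist 0.031, and with genes detected on all 4 arrays Xist was 0.026, by its other probe. Without the iNSC in vivo array, an alternative chosen after seeing the data, Nrxn3 was -1.16. With the 4 arrays alone Actb was represented by another of its probes, which differs by 0.63 in the main setting, and the other probe of Nrxn3 differs by -1.10. For the other genes the cause was not tested. No paired analysis was possible because the in vivo group has 1 array. The dim in vivo array limits falls of genes near its detection limit.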
